A study of Mus musculus with 12 samples.

Results

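Retinoic acid genes were followed here through sorted cells of the newborn mouse testis, and 9 genes of the 54532 in the count table were selected by name. They are the retinal dehydrogenases Aldh1a1, Aldh1a2 and Aldh1a3, which make retinoic acid, the cytochromes P450 Cyp26a1 and Cyp26b1, which break it down, the nuclear receptors Rara, Rarb and Rarg, which it binds, and the cytoplasmic binding protein Crabp1. The data are 12 bulk RNA-seq libraries of testes collected on postnatal day 1 (PN1). They fall into 4 groups of 3, since germ and somatic cells were each taken from dex and from saline animals. All pups whose testes were sorted were male and carried the OCT4-GFP transgene of the strain Tg(Pou5f1-EGFP)2Mnn, in which Pou5f1 sequences drive a green fluorescent protein in germ cells. Dexamethasone (dex), a synthetic glucocorticoid that activates the glucocorticoid receptor, was given by injection to dams on E17.5 and E18.5 and to their newborn pups on PN0. Its dose was 10 μg per gram of body weight, and control dams and pups were injected with saline. Germ cells are the GFP-positive cells of the sort and somatic cells are all GFP-negative cells of the testis together, so that Sertoli, Leydig, peritubular, endothelial and blood cells share the somatic libraries. Each replicate held cells from testes of more than 1 litter, pooled after the litters had been dosed independently.

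Retinoic acid is made from retinol, or vitamin A, through retinal, and acts on genes through retinoic acid receptors that bind DNA with retinoid X receptors. In the fetal testis CYP26B1 from Sertoli cells is known to clear retinoic acid and thereby to keep germ cells from entering meiosis, and after birth retinoic acid drives spermatogonia into differentiation, with Stra8 as its best known response gene. Aldh1a1 is the retinal dehydrogenase known from Sertoli cells.

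On the GRCm38 build, the 3 dehydrogenase genes lie at chr19:20492715-20643462 (Aldh1a1, plus strand), chr9:71215789-71296243 (Aldh1a2, plus) and chr7:66390890-66427517 (Aldh1a3, minus). Cyp26a1 lies at chr19:37697808-37701528 on the plus strand, Cyp26b1 at chr6:84571414-84593908 on the minus strand, and Crabp1 at chr9:54764748-54773110 on the plus strand. The receptor genes are at chr11:98927818-98974942 (Rara, plus), chr14:16430839-16819156 (Rarb, minus) and chr15:102234938-102257517 (Rarg, minus).

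Cyp26a1 and Rarb are textbook response genes of retinoic acid, and the sequences before their starts are shown because they carry the kind of element that its receptors bind, with that of Cyp26b1, which does not, for contrast. The element is a direct repeat of 2 hexamers spaced by 5 bases, searched here on both strands. Either hexamer could be AGGTCA or the form AGTTCA, and it could also be GGGTCA or the form GGTTCA. RefSeq promoter windows (build GRCm38.p6, 250 bases before to 50 after each start) matched 8 of the 9 genes by symbol, Aldh1a3 not among them, with 13 windows in all. Each line below gives the 150 bases up to a start, read on the gene's strand from 5′ to 3′, with the repeat in capitals. Rarb lies on the minus strand at chr14:16575477-16575626, before an internal start of the gene. Cyp26a1 lies on the plus strand at chr19:37697658-37697807, and Cyp26b1 on the minus strand at chr6:84593811-84593960.
Rarb: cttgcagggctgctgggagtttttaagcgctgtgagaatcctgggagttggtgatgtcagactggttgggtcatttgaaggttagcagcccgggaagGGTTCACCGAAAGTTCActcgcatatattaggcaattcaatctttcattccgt
Cyp26a1: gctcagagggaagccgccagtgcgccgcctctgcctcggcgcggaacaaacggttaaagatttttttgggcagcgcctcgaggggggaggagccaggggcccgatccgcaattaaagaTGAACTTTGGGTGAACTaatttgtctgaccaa
Cyp26b1: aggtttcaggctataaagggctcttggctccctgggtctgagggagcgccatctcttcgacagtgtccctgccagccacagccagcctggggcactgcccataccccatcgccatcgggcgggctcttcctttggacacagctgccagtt
The Rarb window held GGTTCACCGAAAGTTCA, 53 to 37 bases before the start, at chr14:16575513-16575529. The Cyp26a1 window held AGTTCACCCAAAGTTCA on the other strand, 32 to 16 bases before the start, at chr19:37697776-37697792. No window of the other genes held the repeat, and 0.0974% of all 32851 promoter windows did. The same hexamers spaced by 2 bases stood in none of the 13 windows and in 0.268% of all windows. A glucocorticoid receptor element, searched as AGAACA and TGTTCT with 3 bases between them, was found in none of the 13 and in 0.00913% of all. TATAAA was present in 13.6% of all windows and here in those of Cyp26b1 and Cyp26a1, where it overlapped no other match. It lay 139 to 134 bases before the start of Cyp26b1 and 29 to 34 bases after that of Cyp26a1, outside the bases printed for Cyp26a1. These matches describe letters in the windows and were not tested as binding sites.

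The labelled populations were checked with marker genes. Summed levels of 6 germ cell markers (Ddx4, Dazl, Pou5f1, Dnd1, Nanos3 and Tdrd1) were 2211 to 2456 CPM (counts scaled to library size) in germ libraries and 7.15 to 8.86 CPM in somatic libraries. For 7 Sertoli cell markers (Amh, Sox9, Dhh, Clu, Inha, Wt1 and Cldn11) the sums were 45.3 to 81.6 CPM in germ libraries and 5126 to 5844 CPM in somatic libraries, and none of the 7 was at 0 in a germ library. Library totals lay between 18459692 and 25178477 counts, which makes the 3 counts that an observed 0 still allows worth 0.114 to 0.165 CPM, counting error only. In such bulk libraries, fewer cells of a type and less RNA per cell cannot be told apart.

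Germ and somatic cells differed in which retinal dehydrogenase held the largest share of the family, although each gene of the family had its higher mean in somatic libraries. Levels of different genes are compared in FPKM, the fragments of a gene scaled to its length and to library size. In saline somatic libraries Aldh1a1 had 218 ± 6.26 FPKM (mean ± SD, n = 3 throughout), Aldh1a2 18.7 ± 2.00 FPKM and Aldh1a3 1.37 ± 0.0773 FPKM, so that Aldh1a1 made up 91.6% ± 0.963 of the family's FPKM. In saline germ libraries the same genes had 2.24 ± 0.488, 14.4 ± 2.32 and 0.685 ± 0.169 FPKM, and Aldh1a2 held 83.0% ± 4.18 of the family. The family sum was 238 ± 4.36 FPKM in saline somatic and 17.3 ± 2.33 FPKM in saline germ libraries. Dex germ libraries had a sum of 16.5 ± 1.85 FPKM with 88.8% ± 3.66 from Aldh1a2, and dex somatic libraries 196 ± 5.96 FPKM with 88.3% ± 1.06 from Aldh1a1.

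The breakdown enzymes were split between the populations. Cyp26c1, the other enzyme of this family and no member of the 9, was added to its sums after its values had been seen. Cyp26b1 supplied nearly all of the CYP26 signal in somatic libraries, 99.7% ± 0.435 in saline at 41.5 ± 5.89 FPKM and more than 99.9% of it in each dex library at 37.9 ± 2.55 FPKM. In germ libraries Cyp26a1 was the largest, with 66.5% ± 3.52 of the family's FPKM in saline and 62.3% ± 4.28 in dex, and Cyp26b1 the smallest, with 10.4% ± 2.65 and 13.9% ± 0.756. Its level there was 5.71 ± 0.887 FPKM in saline and 3.78 ± 0.597 FPKM in dex, beside 0.874 ± 0.140 and 0.838 ± 0.0797 FPKM for Cyp26b1 and 1.97 ± 0.395 and 1.46 ± 0.391 FPKM for Cyp26c1.

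Among the receptors, Rara led in all 4 groups. It made up 89.5% ± 2.35 of receptor FPKM in saline somatic and 64.7% ± 1.63 in saline germ libraries, where Rarg held most of the remainder at 33.3% ± 1.87. Rarb was 2.00% ± 0.242 of receptor FPKM in saline germ libraries and 0.0981% ± 0.0850 in saline somatic libraries. The receptor sum was 42.2 ± 0.427 FPKM in saline somatic and 18.9 ± 0.841 FPKM in saline germ libraries. Crabp1, which binds retinoic acid in the cytoplasm, was the highest of the 9 genes in germ cells at 88.0 ± 1.13 FPKM in saline and 67.7 ± 10.6 FPKM in dex, and stayed under 1 FPKM in each somatic library.

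**Figure D1:**
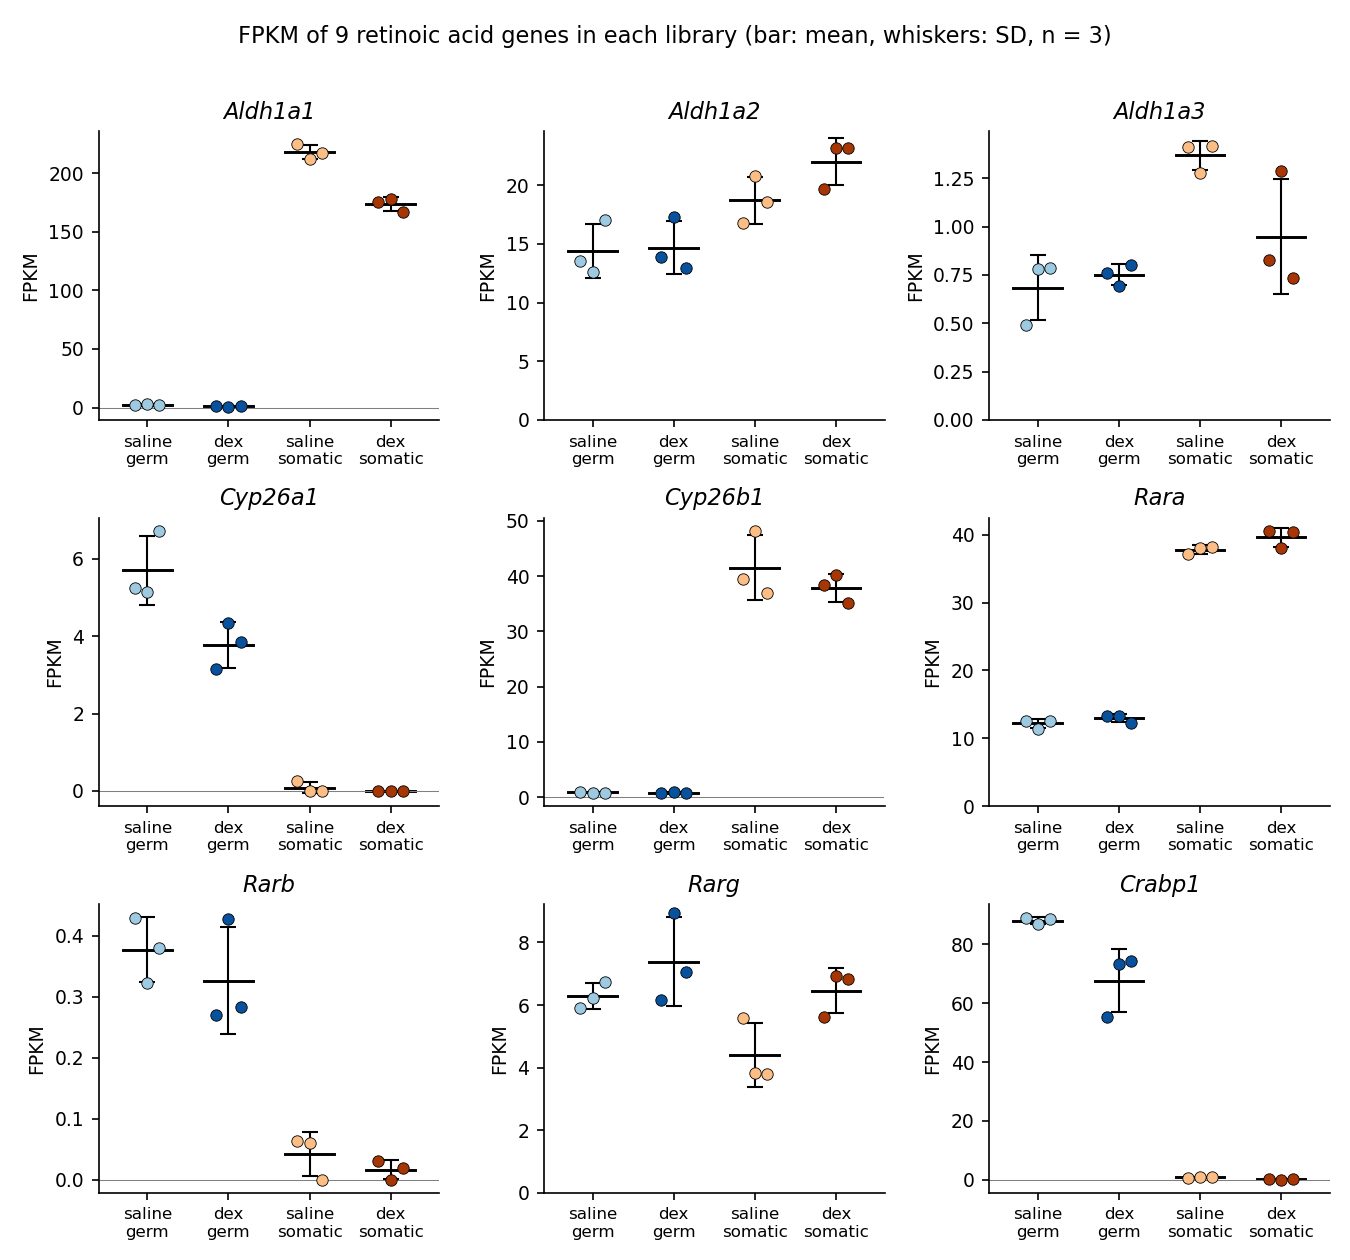
FPKM of the 9 genes in each of the 12 libraries, on a linear scale of its own for each gene; points are libraries, the bar is the group mean and the whiskers are the SD (n = 3). Aldh1a1 and Cyp26b1 stand high in somatic libraries only, Cyp26a1 and Crabp1 in germ libraries only, and Rarg has group means between 4.4 and 7.4 FPKM.

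**Figure D2:**
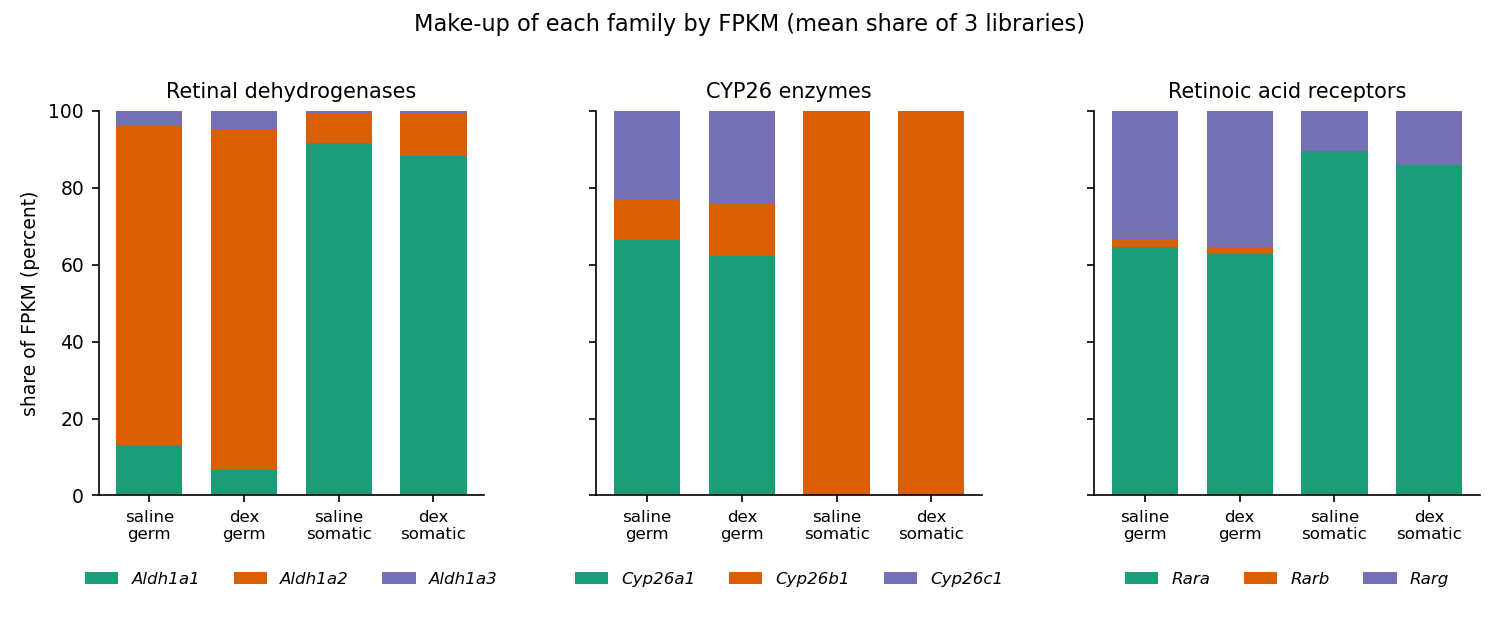
Share of each family's FPKM taken by each gene, in percent, as the mean of 3 libraries per group. Aldh1a2 and Cyp26a1 are the largest parts in germ cells (83.0% and 66.5% in saline), Aldh1a1 and Cyp26b1 in somatic cells (91.6% and 99.7%).

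The difference between the populations was tested first in saline libraries, which ask where these genes are transcribed without treatment. By edgeR's quasi-likelihood test, 9 of 9 genes passed an adjusted p of 0.05 (Benjamini-Hochberg over all 18870 genes tested), against 76.5% of all genes tested, so that a pass says little here and the sizes carry the comparison. Of the 9, 4 were higher in germ cells, against 39.8% of all genes, and 5 in somatic cells, against 36.7%. Across the 9 genes the median log2 difference was -0.50, beside 0.07 over all genes.

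Aldh1a1 counts per library were 198, 256 and 222 in saline germ and 22985, 26228 and 23141 in saline somatic libraries. These are 8.82, 13.7 and 10.8 CPM against 1132, 1136 and 1103 CPM, and every somatic library lay far above every germ library. The log2 difference of germ over somatic cells was -6.73 ± 0.145 (SE, edgeR adjusted p = 3.97e-12), or 106-fold lower in germ cells. Cyp26b1 was next, at 5.57, 4.37 and 4.14 CPM in germ and 216, 280 and 203 CPM in somatic libraries. Its log2 difference was -5.69 ± 0.160 (edgeR adjusted p = 2.41e-11), 51.5-fold lower in germ cells. The enzyme that makes most of the somatic family signal and the enzyme that removes its product were therefore the members with the widest gaps in favour of somatic cells.

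How much of the germ signal of these 2 genes is RNA of somatic cells in the germ sort was not tested, but marker values bear on it. Aldh1a1 in saline germ libraries was 0.785% to 1.22% of its mean in saline somatic libraries and Cyp26b1 1.78% to 2.39%, while the 7 Sertoli markers had medians of 1.31% to 1.64% per library on the same measure. In dex libraries Aldh1a1 was at 0.344% to 0.724%, Cyp26b1 at 1.98% to 2.39%, and the Sertoli medians at 0.922% to 1.08%.

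The remaining genes with higher somatic levels differed less. Rara had 55.4, 50.3 and 54.6 CPM in saline germ and 165, 181 and 171 CPM in saline somatic libraries, a log2 difference of -1.75 ± 0.0818 (edgeR adjusted p = 1.69e-09) with groups well apart. Aldh1a3, a retinal dehydrogenase best known from the eye and nose, had 2.27, 3.63 and 3.61 CPM against 6.65, 6.41 and 6.72 CPM (log2 difference -1.12 ± 0.270, edgeR adjusted p = 0.00234). For Aldh1a2, the main retinal dehydrogenase of the early embryo, germ libraries at 30.9, 28.8 and 38.5 CPM ended just below the lowest of the somatic libraries, which had 38.9, 51.2 and 43.1 CPM. Its log2 difference was -0.50 ± 0.139 (edgeR adjusted p = 0.00554), the smallest gap among the 5.

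Crabp1 stood at the other end. Saline germ libraries had 1608, 1312 and 1453 Crabp1 counts and saline somatic libraries 11, 18 and 17, which is 71.7, 70.0 and 70.8 CPM against 0.542, 0.780 and 0.810 CPM. Its log2 difference of 6.56 ± 0.166 (edgeR adjusted p = 1.06e-11) is 94.2-fold. Cyp26a1 had 210, 172 and 244 counts in germ libraries, whereas 9 counts in somatic replicate 1 and 0 in both other somatic libraries were all that the somatic cells showed (log2 difference 6.04 ± 0.666, edgeR adjusted p = 4.39e-06). The size of this difference rests on somatic replicate 1, without which the fitted value was 10.71 against libraries at 0, and it was 2.63 with limma-trend on log2(FPKM + 1). Rarb was low in both populations, with 51, 32 and 41 counts in germ and 7, 8 and 0 counts in somatic libraries (log2 difference 3.01 ± 0.730, edgeR adjusted p = 0.00249, and 1.78 and 0.40 with limma-trend on FPKM).

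Rarg, the receptor known for its part in undifferentiated spermatogonia, was nearly level between the populations. Germ libraries had 25.4, 26.7 and 28.6 CPM and somatic libraries 24.3, 17.7 and 16.6 CPM, so that somatic replicate 1 nearly reached the germ cells. The log2 difference was 0.39 ± 0.164 (edgeR adjusted p = 0.0448). This call was lost on leaving out any of saline germ replicates 1 to 3 (adjusted p = 0.0967, 0.0811 and 0.165) or saline somatic replicates 2 and 3 (adjusted p = 0.125 and 0.151).

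The same comparison in dex libraries uses none of the saline samples. There 7 of 9 genes passed, beside 76.3% of 18778 genes tested. Of these, 3 were higher in germ cells and 4 in somatic cells, against backgrounds of 40.5% and 35.7%. Crabp1 counts were 937, 1542 and 1239 in dex germ and 5, 1 and 5 in dex somatic libraries, a log2 difference of 8.05 ± 0.299 (edgeR adjusted p = 1.64e-10). Cyp26a1 had 118, 202 and 142 counts in dex germ libraries and 0 in each dex somatic library, at least 43.3-fold higher in germ cells against a floor of 3 counts per library. Rarb had 30, 59 and 31 counts against 3, 0 and 2, a log2 difference of 4.16 ± 0.779 (95% confidence interval 2.45 to 5.86, edgeR adjusted p = 0.000365) that was 0.38 with limma-trend on log2(FPKM + 1).

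Somatic cells again had the higher levels of Aldh1a1, Cyp26b1, Rara and Aldh1a2 in dex. Their log2 differences of germ over somatic cells were -7.51 ± 0.209, -5.60 ± 0.112, -1.71 ± 0.0816 and -0.69 ± 0.132, with edgeR adjusted p-values of 1.49e-11, 1.62e-12, 1.47e-09 and 0.000426. Neither Aldh1a3 (log2 difference -0.44, 95% confidence interval -1.16 to 0.27, edgeR adjusted p = 0.233) nor Rarg (0.09, -0.26 to 0.43, edgeR adjusted p = 0.628) passed, and in both the dex germ and dex somatic libraries overlapped.

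**Figure D3:**
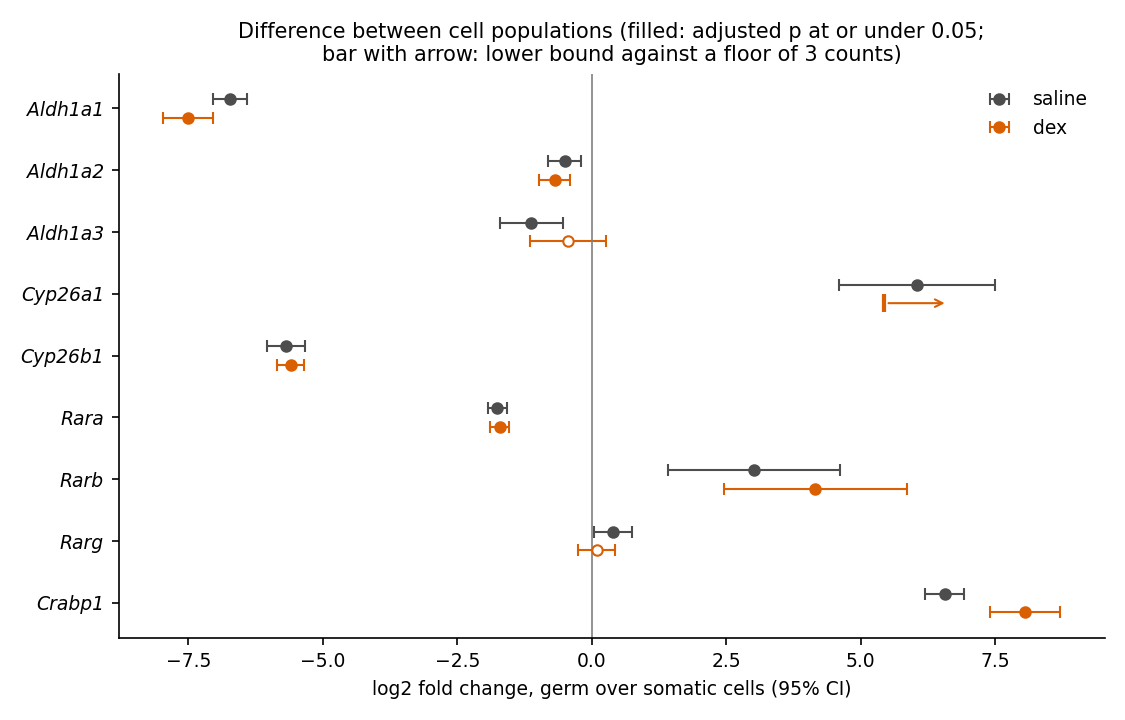
Log2 fold change of germ over somatic cells for each gene, in saline (grey) and in dex (orange) libraries, with 95% confidence intervals; filled points passed an adjusted p of 0.05. Cyp26a1, Rarb and Crabp1 lie to the right of 0 and Aldh1a1, Cyp26b1, Rara and Aldh1a2 to the left in both treatments; for Cyp26a1 in dex the bar and arrow mark a lower bound of 43.3-fold.

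Rarb carries a limit from its neighbour. Its annotated span overlaps Top2b on the opposite strand, and Top2b, a DNA topoisomerase gene, had 27400 counts over the 12 libraries. Since the strand setting of the counting is not given in the sources used here, reads of the overlapping part cannot be told apart by strand. Aldh1a1 shares 1.78% of its 64-base words with Aldh1a7 and Aldh1a3 shares 0.826% with other transcripts, and no other gene of the 9 shared any such word.

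Whether dex changed these genes in germ cells was asked with the 3 dex germ and 3 saline germ libraries. No gene of the 9 passed by edgeR's quasi-likelihood test, where 1.25% of the 18550 genes tested did. DESeq2 called 2 of the 9 on the same counts, Aldh1a1 (adjusted p = 0.00206) and Crabp1 (adjusted p = 0.0194). It also called more genes than edgeR over all genes, as given at the end. In edgeR 3 of the 9 had an unadjusted p under 0.05, beside 2736 of the 18550 genes tested. These 3, Aldh1a1, Cyp26a1 and Crabp1, were lower with dex and were also the members whose dex and saline libraries did not overlap, a state seen in 20.1% of all genes tested. The median log2 fold change of the 9 was -0.09, beside 0.00 over all genes.

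Aldh1a1 had 6.06, 3.00 and 6.31 CPM in dex germ and 8.82, 13.7 and 10.8 CPM in saline germ libraries. All dex libraries were below all saline libraries, with dex replicate 2 the lowest and saline replicate 2 the highest. Its log2 fold change with dex was -1.13 ± 0.263 (95% confidence interval -1.69 to -0.57) and narrowly missed the threshold (edgeR adjusted p = 0.0523). Adjusted p-values of the alternatives ran from 4.69e-05 to 0.222, and 3 of the 15 passed: DESeq2, no filter on low counts, and all 12 libraries fitted together.

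Sertoli cell markers moved in the same libraries. Their summed level was 54.0, 45.3 and 53.4 CPM in dex germ and 66.7, 81.6 and 78.2 CPM in saline germ libraries, so that dex replicate 2 was the lowest and saline replicate 2 the highest for the markers as for Aldh1a1. All 7 markers had a lower mean in dex germ libraries, the median log2 fold change of the 7 was -0.51, and 1 of them, Inha, passed (log2 fold change -0.90, edgeR adjusted p = 0.0233). Leydig cell markers summed to a mean of 10.6 CPM in dex germ and 15.9 CPM in saline germ libraries, and peritubular and stromal markers to 117 to 123 and 106 to 133 CPM. The 6 macrophage markers summed higher with dex, to 17.1 to 19.6 against 11.2 to 13.8 CPM, mostly through Mrc1 (means of 11.7 against 6.27 CPM). In dex germ libraries Mrc1 stood at 186% to 239% of its mean in dex somatic libraries. Of the 4 macrophage markers tested 2 were higher and 2 lower with dex, and none passed. Erythroid markers summed lower, to 4.44 to 7.06 against 7.56 to 9.13 CPM. Rete testis and mesonephric markers, mostly Cdh1 at higher levels in germ than in somatic cells, summed to 183 to 189 against 119 to 163 CPM. Endothelial and mesothelial sums overlapped. The part of somatic RNA in the Aldh1a1 difference was not tested. Cyp26b1, the other gene with a high somatic level, had 4.09, 4.93 and 4.35 CPM in dex germ and 5.57, 4.37 and 4.14 CPM in saline germ libraries, with overlapping groups (log2 fold change -0.09, 95% confidence interval -0.57 to 0.40, edgeR adjusted p = 0.907).

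**Figure D4:**
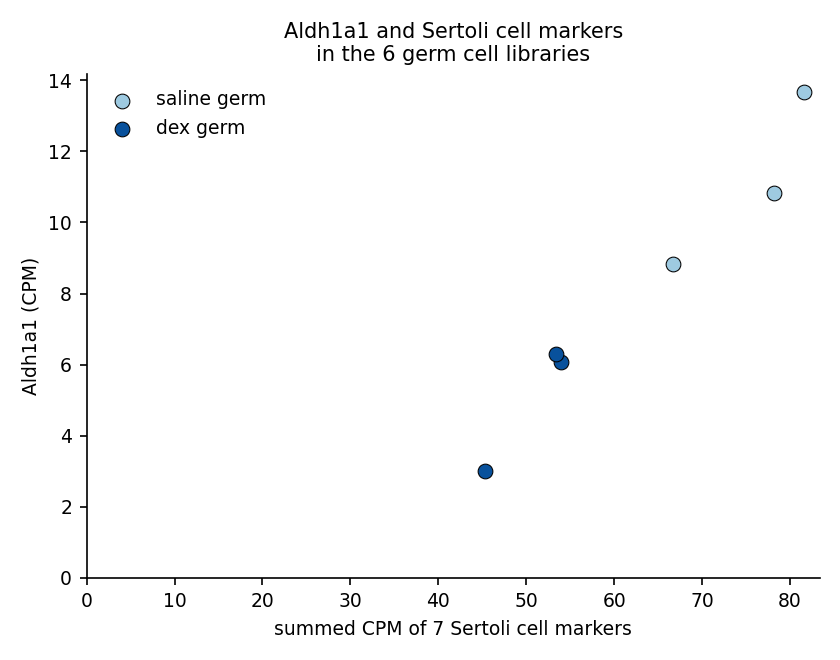
Aldh1a1 in CPM against the summed CPM of 7 Sertoli cell markers in the 6 germ cell libraries, both axes linear and starting at 0; points are libraries. The 3 dex libraries lie at 45.3 to 54.0 CPM of marker and 3.00 to 6.31 CPM of Aldh1a1, below and left of the 3 saline libraries.

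Cyp26a1 and Crabp1, both higher in germ than in somatic cells, had lower means with dex by smaller steps, and neither passed. Cyp26a1 had 5.55, 7.67 and 6.79 CPM in dex and 9.36, 9.18 and 11.9 CPM in saline germ libraries. Every dex library was below every saline library, but the log2 fold change of -0.61 ± 0.192 (95% confidence interval -1.02 to -0.20) did not pass (edgeR adjusted p = 0.139). Crabp1 had 44.0, 58.5 and 59.2 CPM in dex and 71.7, 70.0 and 70.8 CPM in saline, with dex replicate 1 lowest and the saline libraries close together. Its log2 fold change was -0.40 ± 0.109 (95% confidence interval -0.64 to -0.17, edgeR adjusted p = 0.087). Summed germ cell markers did not separate the treatments, at 2249 to 2456 CPM in dex and 2211 to 2394 CPM in saline germ libraries.

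The other genes overlapped between dex and saline germ libraries. Rara, at 57.9, 57.9 and 53.5 CPM in dex and 55.4, 50.3 and 54.6 CPM in saline, gave a log2 fold change of 0.07 with a 95% confidence interval of -0.13 to 0.27, the narrowest of the 9. Aldh1a2 had 31.1, 38.9 and 29.1 CPM in dex and 30.9, 28.8 and 38.5 CPM in saline (log2 fold change 0.00, -0.29 to 0.30). For Rarg the values were 26.0, 38.0 and 29.9 CPM in dex and 25.4, 26.7 and 28.6 CPM in saline (0.21, -0.08 to 0.50), dex replicate 2 standing highest. Aldh1a3 (0.11, -0.46 to 0.69) and Rarb (-0.23, -0.95 to 0.50) had wide intervals at their low counts, and the edgeR adjusted p-values of these 5 genes lay between 0.523 and 0.994.

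In somatic cells 1 of the 7 genes tested passed, Aldh1a1, where 3.91% of the 16766 genes tested did. Cyp26a1 and Rarb had too few counts in somatic libraries to be tested. Aldh1a1 counts were 16095, 17906 and 17059 in dex somatic and 22985, 26228 and 23141 in saline somatic libraries, which is 884, 886 and 844 CPM against 1132, 1136 and 1103 CPM. The groups were tight and well apart, at 871 ± 23.7 and 1123 ± 18.2 CPM. The log2 fold change was -0.33 ± 0.0745, a level 1.26-fold lower with dex (edgeR adjusted p = 0.0181). Leaving out dex somatic replicate 3, saline somatic replicate 1 or saline somatic replicate 3 put the adjusted p at 0.0857, 0.106 or 0.0688, and limma-trend on FPKM gave 0.0659 and 0.0712. With all 12 libraries in the fit it was 0.215, and the log2 fold change stayed between -0.39 and -0.30 under all 15 alternatives.

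Cell type markers were not level in these libraries either. Sertoli markers summed to 5126 to 5662 CPM in dex somatic and 5211 to 5844 CPM in saline somatic libraries, with overlapping groups and a median log2 fold change of 0.01 over the 7. Peritubular and stromal markers (Acta2, Myh11, Des, Pdgfra, Tcf21, Dcn and Col1a1) summed to 8343 to 9716 CPM in dex and 5077 to 6750 CPM in saline somatic libraries, and 5 of the 7 passed as higher with dex. Macrophage markers summed to 21.8 to 26.6 CPM with dex and 42.0 to 72.6 CPM with saline, with 3 of 6 called as lower. All 7 Leydig cell markers had a lower mean with dex, with a median log2 fold change of -0.37 and 1 of them called (Star). Their sums of 480 to 592 CPM against 535 to 616 CPM were mostly Nr5a1, with means of 399 and 411 CPM. Of the 6 endothelial markers 5 were lower and 1 higher with dex, with a median log2 fold change of -0.47 and none called. Their sums overlapped, at 244 to 317 against 245 to 281 CPM. The 3 erythroid markers tested were lower as well, 1 of them called, with sums of 80.7 to 286 CPM in dex and 240 to 380 CPM in saline for the 5 listed. What these shifts contribute to the Aldh1a1 value was not tested.

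Rarg had the largest positive log2 fold change of the 7 genes in somatic cells, at 24.5, 29.7 and 29.8 CPM in dex and 24.3, 17.7 and 16.6 CPM in saline. The lowest dex library was only just above saline replicate 1, the highest of its group. The log2 fold change was 0.55 ± 0.163 (95% confidence interval 0.20 to 0.90) and did not pass (edgeR adjusted p = 0.0819). It passed with DESeq2 (adjusted p = 0.0419), without a filter on low counts (adjusted p = 0.0105) and without saline somatic replicate 1 (adjusted p = 0.0201).

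Of the 7 genes, 4 had dex and saline somatic libraries that did not overlap, against 21.5% of all genes tested. Besides Aldh1a1 and Rarg these were Aldh1a3 and Crabp1. Aldh1a3 had 3.90, 5.98 and 3.46 CPM in dex and 6.65, 6.41 and 6.72 CPM in saline somatic libraries (log2 fold change -0.53 ± 0.278, edgeR adjusted p = 0.376). Crabp1 had 5, 1 and 5 counts in dex and 11, 18 and 17 in saline somatic libraries (log2 fold change -1.84 ± 0.856, edgeR adjusted p = 0.305). The 6 germ cell markers summed to 7.52 to 8.31 CPM in dex and 7.15 to 8.86 CPM in saline somatic libraries, with overlapping groups. Dnd1 was the largest part of these sums, with means of 4.94 CPM in dex and 3.96 CPM in saline. Of the 5 tested 2 had a higher and 3 a lower mean in dex, none of them called, with a median log2 fold change of -0.58. Ddx4 was lower in each dex somatic library, at 0.396 to 0.878 against 0.996 to 1.67 CPM. Dazl was as well, at 0.396 to 0.989 against 1.05 to 1.99 CPM. The part of germ cell RNA in the somatic Crabp1 counts was not tested.

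The highest somatic genes after Aldh1a1 overlapped between treatments. Cyp26b1 had 210, 216 and 192 CPM in dex and 216, 280 and 203 CPM in saline somatic libraries, saline replicate 2 standing above the others (log2 fold change -0.14, 95% confidence interval -0.34 to 0.07, edgeR adjusted p = 0.543). Rara had 181, 167 and 180 CPM in dex and 165, 181 and 171 CPM in saline (0.06, -0.10 to 0.22, edgeR adjusted p = 0.755). Aldh1a2 was at 45.6, 52.8 and 53.6 CPM in dex and 38.9, 51.2 and 43.1 CPM in saline (0.23, -0.02 to 0.48, edgeR adjusted p = 0.357).

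**Figure D5:**
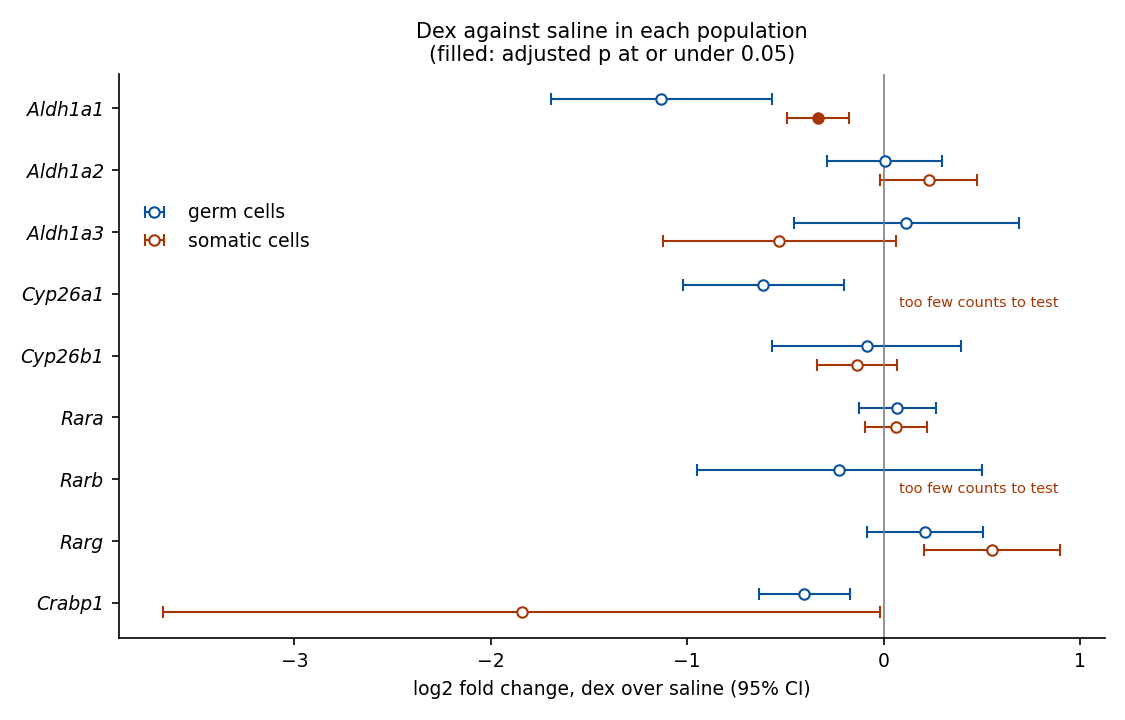
Log2 fold change of dex over saline for each gene in germ cells (blue) and somatic cells (brown), with 95% confidence intervals; the filled point passed an adjusted p of 0.05. Only Aldh1a1 in somatic cells is filled (-0.33), and its germ cell value of -1.13 lies further left with a wider interval.

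A contrast over all 12 libraries tested whether the dex effect differed between germ and somatic cells. None of the 9 genes passed by edgeR's quasi-likelihood test or by DESeq2, where edgeR called 0.827% of 20551 genes. For Aldh1a1 the effect in germ cells minus that in somatic cells was -0.77 ± 0.245 on the log2 scale (95% confidence interval -1.29 to -0.26, edgeR adjusted p = 0.168), with both effects downward. For Crabp1 it was 1.49 ± 0.455 (95% confidence interval 0.53 to 2.45, edgeR adjusted p = 0.148), a difference that rests on somatic libraries with 18 counts or fewer. Rara (0.04, -0.19 to 0.27) and Cyp26b1 (0.09, -0.33 to 0.51) had the narrowest intervals. Adjusted p-values of Aldh1a1 ran from 1.25e-05 without a filter on low counts to 0.456 over the alternatives, and this unfiltered fit was the only alternative of 20 in which it passed.

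The wider pathway was described with 47 further genes of retinol uptake, retinal formation, retinoic acid binding, receptor partners and response genes, all found in the count table. In saline 37 of 42 genes tested were called between the populations, 22 of them higher in somatic cells and 15 in germ cells, beside 76.5% of all genes tested, 36.7% and 39.8%. Stra6, the retinol receptor of the cell membrane, had 2.41, 2.93 and 2.39 CPM in saline germ and 141, 143 and 139 CPM in saline somatic libraries (log2 difference -5.84 ± 0.120, edgeR adjusted p = 2.91e-12). Rdh10, which oxidises retinol to retinal, and Dhrs3, which turns retinal back, were also higher in somatic cells, by log2 differences of -1.43 ± 0.160 and -1.89 ± 0.156 (edgeR adjusted p = 5e-06 and 3.05e-07). Among the listed genes of retinol uptake, storage and transport, 2 of 5 tested were called higher in germ and 2 in somatic cells, and among those that interconvert retinol and retinal, 1 of 12 was called higher in germ and 9 in somatic cells.

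On the receiving side the order was mixed. Rxra, a partner of the receptors, was higher in germ cells at 182 ± 7.68 against 115 ± 10.1 CPM (log2 difference 0.60 ± 0.0833, edgeR adjusted p = 3.37e-05), while Rxrb was lower there (-0.39 ± 0.0935, edgeR adjusted p = 0.0022). Rxrg had 37, 39 and 30 counts in saline germ libraries and 0 in each somatic library, at least 12.3-fold higher. Stra8 had 2557, 1780 and 1368 counts in saline germ libraries and 0, 5 and 1 in saline somatic libraries (log2 difference 9.80 ± 0.390, edgeR adjusted p = 4.14e-10). Crabp2, the binding protein that passes retinoic acid to its receptors, was higher in germ cells by 1.33 ± 0.568 (edgeR adjusted p = 0.0494), with somatic libraries spread from 0.345 to 3.16 CPM.

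With dex, 3 of 35 pathway genes tested passed in somatic cells, all of them higher, beside the background of 3.91%. Tgm2, a transglutaminase induced by retinoic acid in many cells, had 191, 209 and 194 CPM in dex and 99.0, 145 and 119 CPM in saline (0.75 ± 0.101, edgeR adjusted p = 0.000375) and passed under all 15 alternatives. Rarres2, the chemerin gene named for its response to a retinoid, went from 45.4 ± 2.12 to 59.5 ± 4.03 CPM (0.42 ± 0.103, edgeR adjusted p = 0.0289), a call kept under 8 of 15 and lost without any library but dex somatic replicate 2, at adjusted p-values of 0.0581 to 0.12.

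Tgm2 rose in somatic libraries in which Aldh1a1 fell, and in which peritubular and stromal markers were higher with dex, as given above. Stra6 was 107, 120 and 122 CPM in dex and 141, 143 and 139 CPM in saline somatic libraries, with groups apart but no call (log2 fold change -0.24 ± 0.0829, edgeR adjusted p = 0.138). The log2 fold changes of Rdh10, Dhrs3, Rxra, Rxrb and Crabp2 in somatic cells were -0.18, 0.18, 0.17, 0.01 and -0.50, with edgeR adjusted p-values of 0.313 to 0.974, and Rxrg and Stra8 were too low to test.

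In germ cells 1 of 41 pathway genes tested passed, beside the background of 1.25%. It was again Tgm2, at 17.0, 20.5 and 17.1 CPM in dex and 9.36, 9.98 and 13.1 CPM in saline germ libraries (log2 fold change 0.74 ± 0.165, edgeR adjusted p = 0.0436). The call held under 7 of 15 alternatives and was lost without any of dex germ replicates 1 to 3 or saline germ replicates 1 and 2, at adjusted p-values of 0.0879 to 0.205. Tgm2 is itself 11.7-fold lower in germ than in somatic cells in saline. In the same dex germ libraries Sertoli, Leydig and erythroid markers summed lower, as given above. The macrophage and rete testis sums were higher mostly through Mrc1 and Cdh1. Both had higher means in dex germ than in dex somatic libraries (11.7 against 5.53 CPM and 173 against 1.30 CPM). The part of other cells' RNA in the Tgm2 value was not tested. Stra8 did not separate the treatments, at 70.3 to 109 CPM in dex and 66.7 to 114 CPM in saline germ libraries (-0.09, 95% confidence interval -0.46 to 0.27, edgeR adjusted p = 0.858).

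Crabp2 and Rxrg were lower in each dex germ library than in each saline germ library, without a call. Crabp2 had 1.97, 2.96 and 1.05 CPM in dex and 4.63, 3.31 and 4.24 CPM in saline (log2 fold change -1.02 ± 0.338, edgeR adjusted p = 0.161), and Rxrg 1.13, 0.418 and 0.526 CPM against 1.65, 2.08 and 1.46 CPM (-1.34 ± 0.467, edgeR adjusted p = 0.182). The log2 fold changes of Stra6, Rdh10, Dhrs3, Rxra and Rxrb were -0.57, 0.01, -0.15, -0.06 and -0.05, with edgeR adjusted p-values of 0.433 to 0.991.

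Genes whose levels ran most like each member across the 12 libraries were found by Pearson's r of log2 CPM among 11982 or 11983 genes with a mean log2 CPM of at least 2, a likeness that mostly records the split between germ and somatic libraries. Gpr37 ran closely with Aldh1a1 (r = 0.999), while Cyp26b1 was most like Wnt5a (r = 0.999) and Tspan9 (r = 0.999), and Rara most like Zbtb7a (r = 0.998) and Meis1 (r = 0.998). On the germ cell side Crabp1 was most like Nek2 (r = 0.998) and Kit (r = 0.997), and Cyp26a1 like Mrpl46 (r = 0.995) and Xlr4b (r = 0.992). Genes without a wide gap between populations had looser partners, Homer3 (r = 0.954) and Insyn1 (r = 0.951) for Aldh1a2, Tank (r = 0.938) and Fam3c (r = 0.913) for Aldh1a3, and Stard10 (r = 0.906) and Cmklr1 (r = 0.878) for Rarg. No partner was sought for Rarb, which stayed under 1 FPKM in all groups.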

How the data were processed

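Raw counts per gene were deposited by the authors, who had poly(A) RNA sequenced and, per the labels, used HISAT2 2.0.5 (build mm10, GRCm38) and featureCounts 1.5.0-p3, with DESeq2 1.20.0 for their own dex against saline tables, which were not used. FPKM values were also deposited by the authors; in each library they equal count over gene length and a constant of 0.956 to 1.04 times the total. The strand setting and annotation release are not given in the sources used here. Counts were fitted with the quasi-likelihood test of edgeR 4.0.16 (R 4.3.3), TMM, after filterByExpr (minimum count 10), each comparison on its own 6 libraries and the contrast of dex effects on all 12. Genes pass at a Benjamini-Hochberg adjusted p of 0.05 over all genes tested; SE is the log2 fold change over the square root of F. Printed CPM use TMM over all 12 libraries; log2 CPM had a prior count of 2. Alternatives used DESeq2 1.42.0 and limma 3.58.1. The scripts were tested on simulated data. Labels gave groups and replicate numbers. p-values measure the spread between 3 pools of litters per group. Same-numbered libraries did not all correlate above 0.1 in any comparison, and no source used here says that a number marks a shared pool, so replicates were not paired. The genes, the lists and the alternatives were chosen with earlier results of these data known, and named besides the 9 are pathway genes called with dex, fixed pathway genes, and the 2 genes most like each member with at least 1 FPKM in some group; some of these are not reported here. Promoter sequences are from RefSeq.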

Additional observations from a re-analysis of the deposited data

How the results depend on the processing

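The number of the 9 genes called with dex in germ cells was 0 in the fit reported and 2 with DESeq2 and without a filter on low counts (Aldh1a1 and Crabp1), and 1 with all 12 libraries in a single fit (Aldh1a1). In somatic cells it was 1, and 2 with DESeq2 and without a filter (Aldh1a1 and Rarg), 0 with limma-trend on FPKM at either pseudocount (0.1 or 1), and 0 to 1 on leaving out a library. The 1 gene was Crabp1 with all 12 libraries in a single fit and Rarg without saline somatic replicate 1. The contrast of dex effects gave 0 genes, and 1 without a filter (Aldh1a1). For germ against somatic cells in dex, 7 genes became 4 with at least 10 counts in every library, since only 6 of the 9 were then tested. The number called in saline was 7 to 9 under the alternatives. Directions turned for uncalled genes only. On leaving out a library, in germ cells the log2 fold change of Aldh1a2 ran from -0.13 to 0.13, of Aldh1a3 from -0.080 to 0.22 and of Cyp26b1 from -0.17 to 0.058, the difference of Rarg between populations in dex from -0.049 to 0.24, and in the contrast of dex effects Cyp26b1 from -0.047 to 0.22 and Rara from -0.023 to 0.060. Rarb in that contrast was 1.14, and -0.020 with limma-trend on log2(FPKM + 1). The cause of these changes was not tested. Library totals in place of TMM moved the median log2 difference of all genes from 0.07 to 0.21 in saline and from 0.12 to 0.30 in dex, and called the same number of members.

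With the replicate number as a block, 0 genes were called in germ cells (Aldh1a1 adjusted p = 0.126), 1 in somatic cells (Aldh1a1, 0.0264), 9 in saline and 7 in dex between populations, and 0 in the contrast. Tgm2 in germ cells lost its call under the block (adjusted p = 0.109). Correlations of same-numbered libraries' deviations from their group means were 0.120, -0.206 and -0.127 between dex and saline germ cells. They were 0.0846, 0.149 and 0.116 between germ and somatic cells in saline, a hint of pairing from the data and not the design, and at most 0.0222 elsewhere. Every pair of unlike numbers in that saline comparison was negative. Since deviations within a group sum to 0, positive same-numbered values push the others down, so this adds little.

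Over all genes, 231 were called with dex in germ cells, and 711 with DESeq2, 767 without a filter, 142 with all 12 libraries, 65 with the block, and 6 and 12 with limma-trend. In somatic cells 655 became 1061 without a filter and 251 and 281 with limma-trend. In the contrast 170 became 648 with DESeq2, 706 without a filter, 262 with at least 10 counts in every library, 104 with the block and 57 with limma-trend at a pseudocount of 0.1. Depth limits Rarb and, in somatic cells, Cyp26a1 and Crabp1, whose values rest on few counts. The pathway genes were carried through the same alternatives after the data had been seen.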
